A study of Homo sapiens with 8 samples.

Results

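Matrix metalloproteinases (MMPs) and their tissue inhibitors (TIMPs) were followed in glioblastoma cells after knockdown of RND3. The group held 10 genes, taken by symbol from the 19483 genes with a probe on the array. It comprised 6 metalloproteinases (MMP1, MMP2, MMP3, MMP7, MMP9 and MMP14) and the 4 inhibitors TIMP1, TIMP2, TIMP3 and TIMP4. Each gene was read by 1 probe, the 1 matched to it by transcript accession. All 10 probes were well above background on all 8 arrays, so none of the member values below is a bound.

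Metalloproteinases are zinc-dependent enzymes that cut collagens, laminins, proteoglycans and cell surface proteins. They are made as inactive precursors and are opened by other proteases, and the TIMPs then block the active site. In glioma they are known for breaking down the matrix around blood vessels and invading cells, and the gelatinase MMP2 is activated at the cell surface by a complex of MMP14 and TIMP2.

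The cells were U87, an established human glioblastoma line, reverse-transfected with siRNA against RND3 (siRND3) or with a non-silencing siRNA (siControl). RNA was taken 24 h after transfection on 3 siControl and 3 siRND3 arrays, and after 48 h on 1 array of each. The methods name a pair of RND3 siRNAs without saying which array received which, and the labels do not say whether replicates were separate transfections, so p-values measure only the spread between these arrays.

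Expression is given as log2 intensity, quantile-normalised over the 8 arrays, and a difference is siRND3 minus siControl. A probe was called when its limma adjusted p was under 0.05 over all 28759 probes tested. At 48 h, with 1 array a group, the spread was borrowed from the 24 h arrays. All arrays lay on 1 slide, with siRND3 in row 1 and siControl in row 2, so row and treatment cannot be told apart, and both 48 h arrays lay in column 4. RND3 itself fell by 1.66 at 24 h (SE 0.10, adjusted p 0.000345) and fell by 1.65 at 48 h (SE 0.16, adjusted p 0.00140). Its 3 siRND3 arrays at 24 h (10.12, 10.18 and 10.42) all lay below the 3 siControl arrays (11.88, 11.91 and 11.90), for which an exact two-sided permutation test gave p = 0.1, the smallest that 3 against 3 allow. In RNA from a culture, fewer cells of a kind and less RNA per cell cannot be told apart.

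MMP2 was the member that was called at 24 h, and at 48 h MMP2, TIMP3 and MMP14 were lower and TIMP4 was higher on the siRND3 array. At 24 h, 1 of 10 members was called, against 11.6% of all probes tested (5.27% higher and 6.38% lower). At 48 h, 4 of 10 were called, against 19% of all probes (9.77% higher and 9.19% lower). The median difference over the 10 members was -0.04 at 24 h and -0.23 at 48 h, where the medians over all probes tested were 0.05 and 0.05. The 24 h result for MMP2 was known when the genes were chosen and is not independent support.

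**Figure D1:**
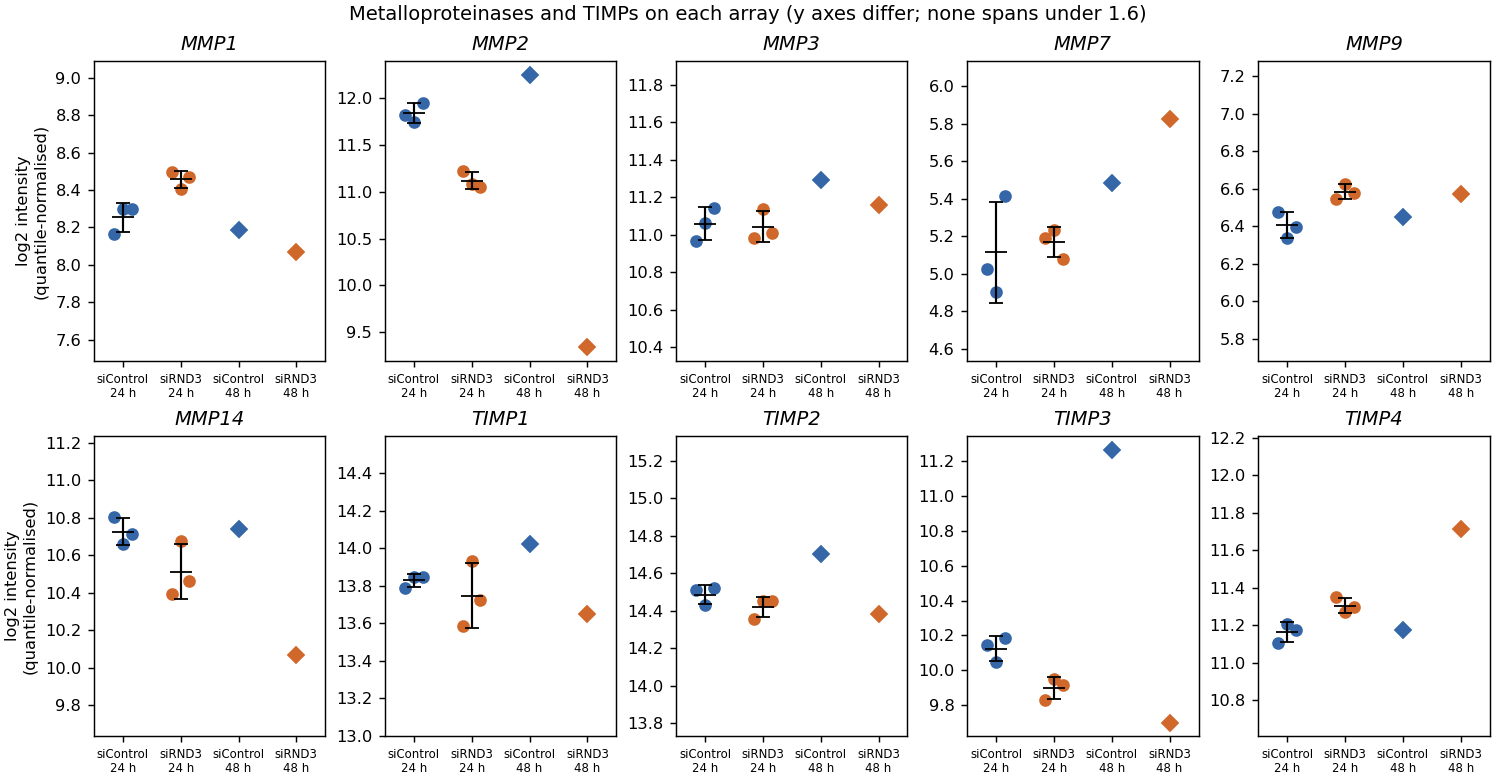
Log2 intensity of the 10 genes on each array, by treatment and time; circles are 24 h arrays, diamonds the single 48 h arrays, and black marks the mean and SD of 3 arrays. MMP2 on siRND3 arrays runs from 11.06 to 11.23 at 24 h, below every siControl array, and is 9.34 at 48 h, while TIMP3 on the siControl array at 48 h is 11.26, above every other TIMP3 value.

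Among the gelatinases, which cut denatured collagen and basement membrane collagen, MMP2 was lower after knockdown at both times. Its log2 intensity was 11.82, 11.75 and 11.96 on the siControl arrays at 24 h and 11.23, 11.08 and 11.06 on the siRND3 arrays. The 48 h arrays gave 12.25 for siControl and 9.34 for siRND3. Every siRND3 value lay below every siControl value, and the 48 h siRND3 array was the lowest of the 8. MMP2 fell by 0.72 at 24 h (SE 0.09, limma adjusted p 0.00505, 3 arrays per group), leaving 60.7% of the control level. The 48 h arrays showed that it fell by 2.92 (SE 0.16, adjusted p 0.000295), to 13.2%.

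The MMP2 difference was larger at 48 h than at 24 h, by -2.20 (SE 0.18, limma adjusted p 0.0123). RND3 did not show such a step, with a difference between the times of 0.01 (SE 0.19, adjusted p 0.992). Between 24 h and 48 h MMP2 fell by 1.79 in siRND3 cells (SE 0.13, adjusted p 0.00233), to 29.0% of its 24 h level. In siControl cells it differed by 0.41 in the other direction (SE 0.13), which did not pass (adjusted p 0.134). The call for this step was lost when siControl replicate 1 was left out (adjusted p 0.0645). With all 8 arrays in 1 fit of treatment and time, the MMP2 difference pooled over 24 h and 48 h was -1.27.

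MMP9, the other gelatinase, did not pass at either time. It was 6.48, 6.34 and 6.40 on the siControl arrays at 24 h and 6.55, 6.63 and 6.58 on the siRND3 arrays, then 6.45 and 6.57 at 48 h. The siRND3 arrays at 24 h were all above the siControl arrays, but the difference was 0.18 (SE 0.07, adjusted p 0.174) and at 48 h 0.12 (SE 0.13, adjusted p 0.620). The SD between the 10 spots of the MMP9 probe within an array was 0.13 to 0.32.

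MMP14, the membrane-bound enzyme that opens the MMP2 precursor, was lower at 48 h. Its log2 intensity at 24 h was 10.80, 10.66 and 10.71 in siControl cells and 10.40, 10.68 and 10.46 in siRND3 cells. The groups overlapped at 24 h through siRND3 replicate 2, and the difference of -0.21 did not pass (SE 0.10, adjusted p 0.215). The 48 h values were 10.74 for siControl and 10.07 for siRND3, the lowest of the 8. MMP14 thus fell by 0.67 at 48 h (SE 0.17, limma adjusted p 0.0371), to 62.8%. That call was lost without siControl replicate 1, 2 or 3 (adjusted p 0.0637, 0.0638 and 0.0739), without siRND3 replicate 3 (0.0539) and without the filter on dim probes (0.0605). The step from 24 h to 48 h was -0.46 and did not pass (SE 0.20, adjusted p 0.280).

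The collagenase MMP1, which cuts fibrillar collagen, read 8.17, 8.30 and 8.30 on the siControl arrays at 24 h and 8.49, 8.40 and 8.47 on the siRND3 arrays. The 48 h readings were 8.18 and 8.07. The siRND3 arrays were all above the siControl arrays at 24 h and the siRND3 array was below at 48 h. Neither difference passed, with 0.20 at 24 h (SE 0.08, adjusted p 0.141) and -0.11 at 48 h (SE 0.13, adjusted p 0.656).

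Stromelysin MMP3, which cuts proteoglycans and opens other precursors, read 10.97, 11.06 and 11.14 in siControl cells and 10.98, 11.14 and 11.01 in siRND3 cells at 24 h, then 11.29 and 11.16 at 48 h. The groups overlapped throughout the 24 h range, with a difference of -0.02 (95% interval -0.22 to 0.19) and an adjusted p of 0.924. At 48 h the difference was -0.13 (95% interval -0.48 to 0.21, adjusted p 0.626).

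Matrilysin MMP7, a small enzyme with no hemopexin domain, read 5.03, 4.90 and 5.42 in siControl cells and 5.19, 5.24 and 5.08 in siRND3 cells at 24 h. The 48 h arrays read 5.48 and 5.82, the latter being the highest of the 8 arrays. The siControl arrays spread so widely (SD 0.27, n = 3) that they enclosed the siRND3 arrays. The difference was 0.05 at 24 h (95% interval -0.28 to 0.39, adjusted p 0.841) and 0.34 at 48 h (95% interval -0.25 to 0.93, adjusted p 0.434). The 48 h value was 0.15 after normexp and 0.19 with the authors' values, neither past the threshold.

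Among the inhibitors, TIMP3 was lower and TIMP4 higher at 48 h. TIMP3 is the inhibitor that binds to the matrix and also blocks ADAM17 and several ADAMTS enzymes. Its 24 h readings were 10.14, 10.05 and 10.18 for siControl and 9.83, 9.95 and 9.92 for siRND3. The siRND3 arrays all lay below the siControl arrays, by 0.23 on average, and the difference did not pass (SE 0.08, adjusted p 0.112), although it did after normexp background correction (adjusted p 0.0390). In the fit of all 8 arrays, which pools 24 h and 48 h, it was -0.56. At 48 h TIMP3 read 11.26 for siControl, the highest of the 8, and 9.70 for siRND3, the lowest. The 48 h difference was a fall by 1.56 (SE 0.13, limma adjusted p 0.000871), to 33.9%.

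The step in the TIMP3 difference from 24 h to 48 h was -1.34 (SE 0.15, limma adjusted p 0.0219). In siControl cells TIMP3 rose by 1.14 between the times (SE 0.11, adjusted p 0.0104), to 220% of its 24 h level. In siRND3 cells the same interval gave -0.20 (SE 0.11), which did not pass (adjusted p 0.306). So at 48 h the MMP2 difference held a called fall in siRND3 cells, whereas that of TIMP3 held a called rise in siControl cells. Without siControl replicate 1, 2 or 3 the TIMP3 step had adjusted p 0.0728, 0.0723 and 0.0744.

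TIMP4 went the other way at 48 h. On the siControl arrays at 24 h it read 11.10, 11.21 and 11.18, and on the siRND3 arrays 11.35, 11.27 and 11.30. All siRND3 arrays were above all siControl arrays, but the difference of 0.14 did not pass (SE 0.07, adjusted p 0.248). The 48 h siControl array gave 11.17, inside the 24 h siControl range, and the siRND3 array gave 11.71, the highest of the 8. TIMP4 rose by 0.54 at 48 h (SE 0.12, limma adjusted p 0.0262), to 145%. The call was lost without siControl replicate 1, 2 or 3 (adjusted p 0.0525, 0.0529 and 0.0647).

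TIMP1, a broad inhibitor of secreted metalloproteinases, read 13.79, 13.84 and 13.85 in siControl cells and 13.59, 13.93 and 13.72 in siRND3 cells at 24 h. Its 48 h readings were 14.02 and 13.65. The siRND3 replicate 2 array exceeded all siControl arrays at 24 h, so the groups overlapped. The difference was -0.08 at 24 h (95% interval -0.33 to 0.16, adjusted p 0.657) and -0.37 at 48 h (95% interval -0.79 to 0.05, adjusted p 0.217).

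TIMP2, which both inhibits MMP2 and joins MMP14 in activating its precursor, read 14.51, 14.43 and 14.52 in siControl cells and 14.36, 14.45 and 14.45 in siRND3 cells at 24 h. The groups overlapped, with a difference of -0.07 (95% interval -0.24 to 0.11, adjusted p 0.609). At 48 h the readings were 14.70 and 14.38. That difference of -0.32 (95% interval -0.62 to -0.02) did not pass the adjusted threshold (adjusted p 0.135).

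**Figure D2:**
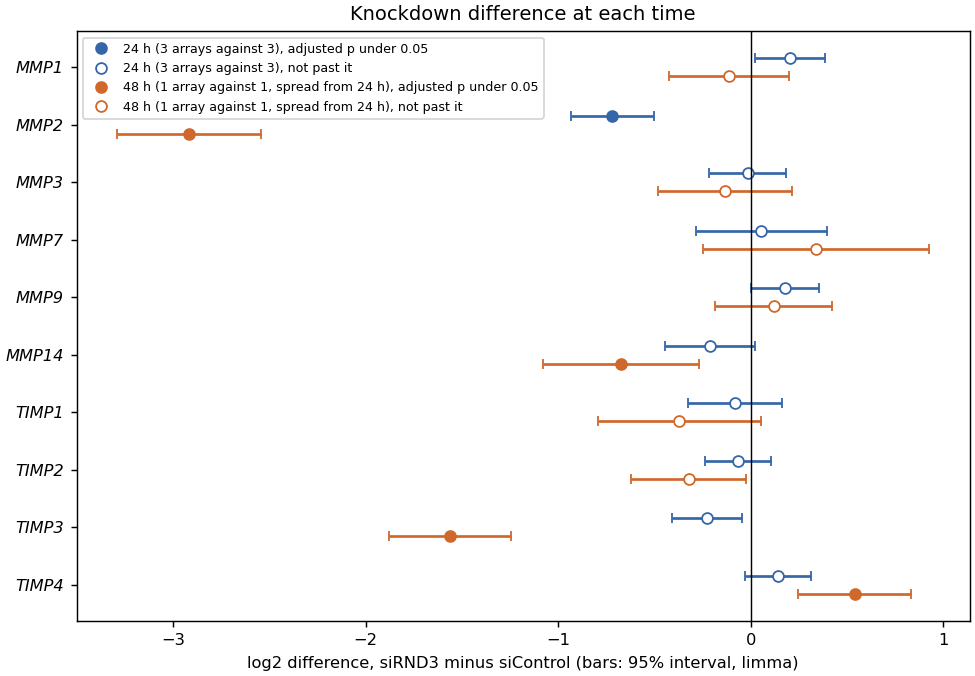
Log2 difference (siRND3 minus siControl) of each gene at 24 h and 48 h, with bars for the 95% interval and filled points for adjusted p under 0.05. MMP2 lies at -0.72 and -2.92 and TIMP3 at -0.23 and -1.56, while the 48 h spread rests on the 24 h arrays.

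Taken by ranges, 5 of the 10 members had groups that did not overlap at 24 h, with MMP1, MMP9 and TIMP4 higher and MMP2 and TIMP3 lower. Over all probes with 6 values, 34.4% did not overlap (20.3% higher and 14% lower). The step between the times was called for MMP2 and TIMP3, both lower, against 2.73% of all probes (1.1% higher and 1.63% lower), and for the other 8 members it had an adjusted p of at least 0.203.

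Few members were called between 24 h and 48 h within a treatment. In siControl cells 1 of 10 (TIMP3, higher) was called, against 3.56% of all probes (0.824% higher and 2.73% lower). In siRND3 cells 1 of 10 (MMP2, lower) was called, against 9.03% of all probes (2.59% higher and 6.45% lower). There TIMP4 differed by 0.41 (SE 0.10, adjusted p 0.0553), MMP7 by 0.65 (SE 0.20, adjusted p 0.0966), MMP1 by -0.38 (SE 0.11, adjusted p 0.0768) and MMP14 by -0.44 (SE 0.14, adjusted p 0.102). TIMP4 passed with the authors' values, after normexp and under the stricter filter (adjusted p 0.0404, 0.0206 and 0.0488), and MMP7 with the authors' values (0.0434). The MMP7 value was 0.41 with the authors' values and 0.28 after normexp, where it did not pass. Time and slide column cannot be told apart in these comparisons.

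**Figure D3:**
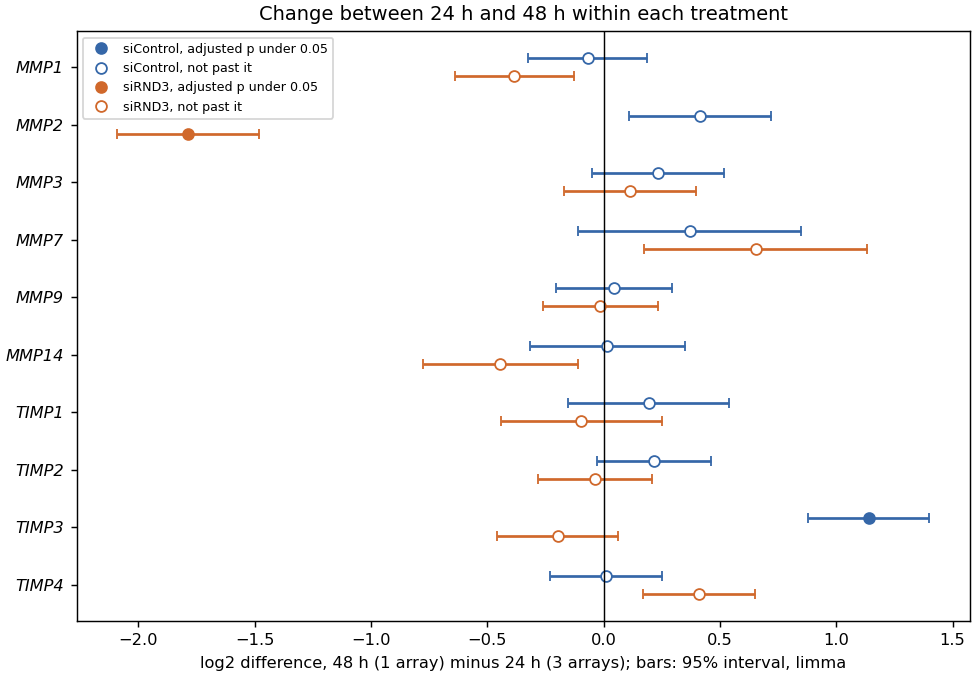
Log2 difference between 48 h and 24 h within siControl and within siRND3 cells, with bars for the 95% interval and filled points for adjusted p under 0.05. TIMP3 is at 1.14 in siControl and -0.20 in siRND3 cells, and MMP2 at 0.41 and -1.79.

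Promoter sequence was at hand for 5 of the 10 members, from RefSeq (GRCh38.p14). The 250 bases before the start of TIMP3, MMP14 and TIMP4 are shown because these members were called at 48 h. Capitals mark the GC box GGGCGG, the core of the binding sequence of SP1, on either strand. The TIMP3 stretch lies on chromosome 22 (32801455 to 32801704, plus strand), that of MMP14 on chromosome 14 (22836335 to 22836584, plus strand) and that of TIMP4 on chromosome 3 (12158913 to 12159162, minus strand).
TIMP3: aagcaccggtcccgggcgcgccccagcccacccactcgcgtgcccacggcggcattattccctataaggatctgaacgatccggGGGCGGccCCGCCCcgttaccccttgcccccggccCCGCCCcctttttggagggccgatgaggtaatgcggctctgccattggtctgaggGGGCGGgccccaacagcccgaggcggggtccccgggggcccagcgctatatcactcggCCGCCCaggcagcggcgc
MMP14: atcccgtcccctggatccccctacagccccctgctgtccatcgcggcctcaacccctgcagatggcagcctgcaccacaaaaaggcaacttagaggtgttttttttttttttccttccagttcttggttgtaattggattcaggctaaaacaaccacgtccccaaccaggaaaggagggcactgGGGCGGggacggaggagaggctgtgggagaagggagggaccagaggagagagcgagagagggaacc
TIMP4: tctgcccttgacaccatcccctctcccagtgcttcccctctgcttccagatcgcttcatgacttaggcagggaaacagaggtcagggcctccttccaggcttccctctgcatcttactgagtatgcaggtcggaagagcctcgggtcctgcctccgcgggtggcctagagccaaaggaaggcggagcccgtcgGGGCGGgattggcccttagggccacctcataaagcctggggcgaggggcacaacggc

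TIMP3 held 5 GC boxes, 18 to 166 bases before the start, in sequence of 72.4% G and C. MMP14 held 1, at 66 bases, and TIMP4 held 1, at 57 bases. TIMP1 held 2, at 45 and 135 bases. MMP7 held no GC box but an AP-1 site (TGANTCA) at 67 bases and a TATA box (TATAAA) at 30 bases. Over 35116 promoter windows of the same length, 42.6% held a GC box, 6.57% an AP-1 site and 10.7% a TATA box on either strand. A match describes the letters in the window and is no evidence of binding. Whether such sites bear on the knockdown differences was not tested.

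The genes whose pattern over the 8 arrays was closest to that of MMP2 were KIAA1549, S1PR3, MET, PDE4D and MOB4. Closeness was the root mean square difference between log2 values, each centred on its own mean over the 8 arrays, among 14137 genes with a probe well above background throughout. It was 0.16 for KIAA1549, 0.17 for S1PR3, 0.17 for MET, 0.18 for PDE4D and 0.18 for MOB4, where the median gene had 0.89. MET encodes the receptor of hepatocyte growth factor, S1PR3 a receptor of sphingosine-1-phosphate, and PDE4D an enzyme that breaks down cyclic AMP.

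MET read 13.31, 13.21 and 13.26 on the siControl arrays and 12.39, 12.18 and 12.36 on the siRND3 arrays at 24 h, then 13.22 and 10.67 at 48 h. Its difference was -0.95 at 24 h and -2.55 at 48 h, beside -0.72 and -2.92 for MMP2. S1PR3 had -0.82 and -2.36, PDE4D -0.91 and -2.85, MOB4 -0.85 and -2.49 and KIAA1549 -0.55 and -2.55. The 5 were picked for this likeness over these 8 arrays, so their values are a description.

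**Figure D4:**
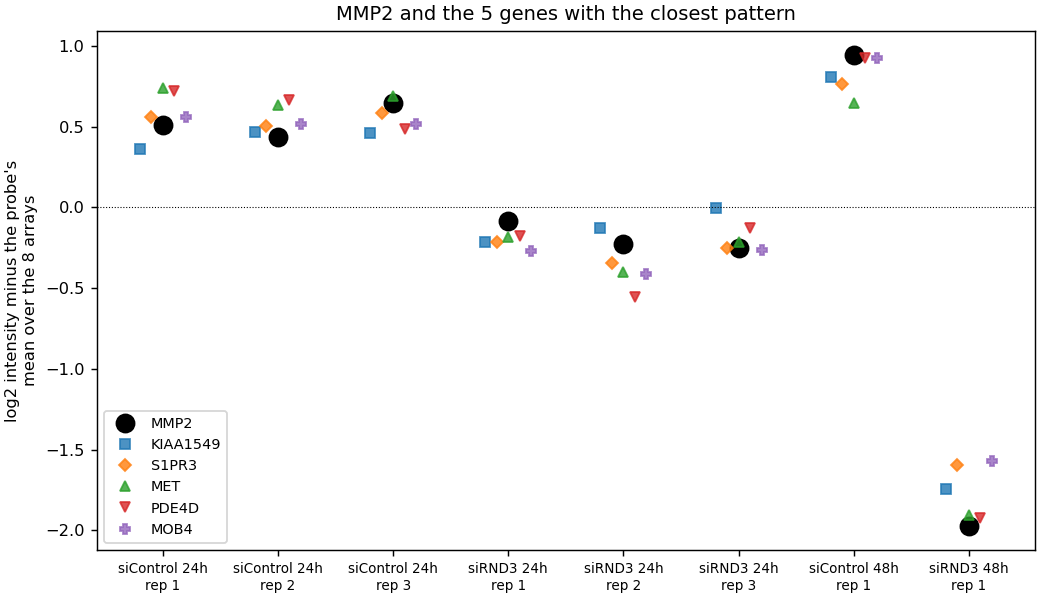
Log2 intensity minus the probe's own mean over the 8 arrays, for MMP2 (black) and the 5 genes closest to it. All 6 genes are above their mean on the 4 siControl arrays and lowest on the siRND3 array at 48 h.

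The other metalloproteinases were either too dim to be tested or not called for the knockdown. Of 17 further MMP genes, 9 had a probe that could be tested. At 24 h limma called 0 of their 11 probes, beside 11.6% of all probes, and 1 had an unadjusted p under 0.05. SAM called 0 of them, beside 3991 of all probes. At 48 h limma called 0, beside 19% of all probes, and 1 had an unadjusted p under 0.05. Of all 28759 probes tested, 8063 had an unadjusted limma p under 0.05 at 24 h and 8886 at 48 h. The time comparisons, named here after their values were seen, called MMP24 lower at 48 h in siControl cells (-0.73, adjusted p 0.0239). They called MMP16 higher at 48 h in siRND3 cells (0.87, adjusted p 0.0299), and both are membrane-type enzymes. Each was 1 of the 11 probes, beside 3.56% of all probes for time in siControl and 9.03% for time in siRND3.

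The MMP genes that were well above background on no array all lie on chromosome 11. Of the 10 listed MMP genes on chromosome 11, the members MMP1, MMP3 and MMP7 were well above background on all 8 arrays. The other 7 (MMP8, MMP10, MMP12, MMP13, MMP20, MMP26 and MMP27) were so on 0 arrays. Of the 13 on other chromosomes, 12 were well above background on all 8 arrays and MMP23B was on 4. Over all probes, 68.3% to 70.7% per array were well above background. This is a description of 1 probe for most genes, and a dim probe gives only an upper bound.

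Of 15 tested genes of the related ADAM family, 1 was higher and 1 lower at 24 h, with 8.33% of the list's probes called beside 11.6% of all probes. ADAM15 read 13.28, 13.34 and 13.26 in siControl and 13.69, 13.81 and 13.68 in siRND3 cells, a rise by 0.44 (SE 0.07, adjusted p 0.0150) in groups that did not overlap, and its other probe gave 0.38 (adjusted p 0.0543). The ADAM15 call was lost without siControl replicate 1 or 3 (adjusted p 0.0637 and 0.0751). ADAM12 fell by 0.34 on 1 of 3 probes (SE 0.07, adjusted p 0.0324), and this call was lost when any of the 6 arrays was left out (adjusted p 0.0542 to 0.121).

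ADAM8 differed by 0.09 at 24 h (adjusted p 0.464) but fell by 1.02 at 48 h (SE 0.12, adjusted p 0.00241), and the step of -1.11 was called (SE 0.14, adjusted p 0.0245). It read 13.01, 12.91 and 12.96 in siControl and 13.08, 13.03 and 13.03 in siRND3 cells at 24 h, then 13.53 and 12.51. The siRND3 array thus went from above to below siControl. The step was lost without siControl replicate 1, 2 or 3 (adjusted p 0.0757, 0.0757 and 0.0797) or siRND3 replicate 1 (0.0501). At 48 h ADAM15 was higher and ADAM8 and ADAM12 lower, with 16.7% of the list's probes called beside 19% of all probes.

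Of 13 tested genes of the ADAMTS family, 0 were higher and 2 lower at 24 h, with 10.5% of the list's probes called beside 11.6% of all probes. ADAMTS4, an aggrecanase, read 7.30, 7.09 and 7.26 in siControl and 6.20, 6.29 and 6.33 in siRND3 cells, a fall by 0.95 (SE 0.09, adjusted p 0.00157) that was -0.58 after normexp. The 48 h arrays read 7.26 and 5.31, and the step was -1.01 (SE 0.17, adjusted p 0.0412). That step was lost when any of the 6 arrays was left out (adjusted p 0.0612 to 0.104), and after normexp it was -0.47 (adjusted p 0.0742). ADAMTS14, which trims procollagen, was the other of the 2 and was tested only because it was well above background on all siControl arrays. It read 5.06, 5.25 and 5.10 in siControl and 4.32, 3.59 and 4.05 in siRND3 cells, and was not well above background on siRND3 replicate 2. Its difference is therefore given as a description, -1.15 on this scale, -0.45 with the authors' values and -0.32 after normexp. It was not well above background on the 48 h siRND3 array either. Set against the higher of its own signal and the lowest signal well above background there, ADAMTS14 was lower by 3.74-fold on this scale. That is 1 array against 1. Over the alternatives the ADAMTS14 difference at 48 h ran from -1.91 to -0.59, so this fold is no lower bound. ADAMTS16 was higher at 48 h (2.35, SE 0.60, adjusted p 0.0379), named after its value was seen.

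Among 14 tested genes that process, bind or clear metalloproteinases, 3 were lower at 24 h and 0 higher, with 14.3% of the list's probes called beside 11.6% of all probes. CTSB, the lysosomal protease cathepsin B, read 13.69, 13.63 and 13.65 in siControl and 11.42, 11.13 and 11.12 in siRND3 cells, then 13.61 and 10.59 at 48 h. The groups did not overlap, and CTSB fell by 2.43 at 24 h (SE 0.10, adjusted p 0.000143) and fell by 3.02 at 48 h (SE 0.18, adjusted p 0.000336). FURIN, the convertase that opens the MMP14 precursor, fell by 0.44 (SE 0.09, adjusted p 0.0280), which was -0.22 after normexp and -0.28 with the authors' values. ITGB3, the integrin subunit of the receptor that docks MMP2, fell by 0.37 (SE 0.07, adjusted p 0.0243). The FURIN call was lost when any 1 siControl array, or siRND3 replicate 1 or 3, was left out (adjusted p 0.0537 to 0.110), and in both of those alternatives (0.0585 and 0.0604). The ITGB3 call was lost when any 1 siControl array, or siRND3 replicate 1 or 2, was left out (adjusted p 0.0574 to 0.0966).

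At 48 h 5 genes of that list were lower and 1 higher, with 28.6% of its probes called beside 19% of all probes. The lower ones were CTSB, TFPI2 (-1.18, adjusted p 0.00621), ITGB3, FURIN and RECK. RECK differed by -0.86 on 1 of its probes (adjusted p 0.0166), while another gave a difference of 0.01 and was not called. TFPI2 and RECK are named after their values were seen. RECK is a membrane-anchored inhibitor of MMP2, MMP9 and MMP14. THBS2, which carries MMP2 to its clearance receptor, read 8.02 and 8.60 at 48 h on 1 probe, and its step from 24 h was 0.75 (SE 0.13, adjusted p 0.0428). The other THBS2 probe gave 0.09 (adjusted p 0.854), and the step was lost when any of the 6 arrays was left out (adjusted p 0.0681 to 0.125), and also with 75th percentile scaling, after normexp (0.50) and with the authors' values (adjusted p 0.0597, 0.0525 and 0.0728).

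Among 18 tested factors known to act on MMP promoters, 3 were lower and 1 higher at 24 h, with 5 of 23 probes (21.7%) called beside 11.6% of all probes. SP1, which binds GC boxes, read 8.91, 9.21 and 9.03 in siControl and 8.32, 8.13 and 8.34 in siRND3 cells, a fall by 0.78 (SE 0.11, adjusted p 0.00692) between groups that did not overlap. JUN, a subunit of AP-1, fell by 0.47 (SE 0.08, adjusted p 0.0124), a call lost without siControl replicate 1 or 3 (adjusted p 0.0581 and 0.0606). ETV1, an ETS factor, fell by 0.42 and 0.41 on 2 of its 4 probes (adjusted p 0.0169 and 0.0207), and neither call held when any 1 siControl array was left out (adjusted p 0.0654 to 0.0794), nor did the latter without siRND3 replicate 1 or 2 (0.0525 and 0.0559). ETS2, another ETS factor, rose by 0.39 (SE 0.09, adjusted p 0.0465), or 0.25 after normexp, a call lost when any of the 6 arrays was left out (adjusted p 0.0661 to 0.127). At 48 h the lower factors were SP1 (-1.10), JUN (-0.92), ETV1, ETV5 (-1.35) and FOS (-0.83), with ETS2 higher (0.84) and 34.8% of the list's probes called beside 19% of all probes, of which ETV5 and FOS are named after their values were seen.

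**Figure D5:**
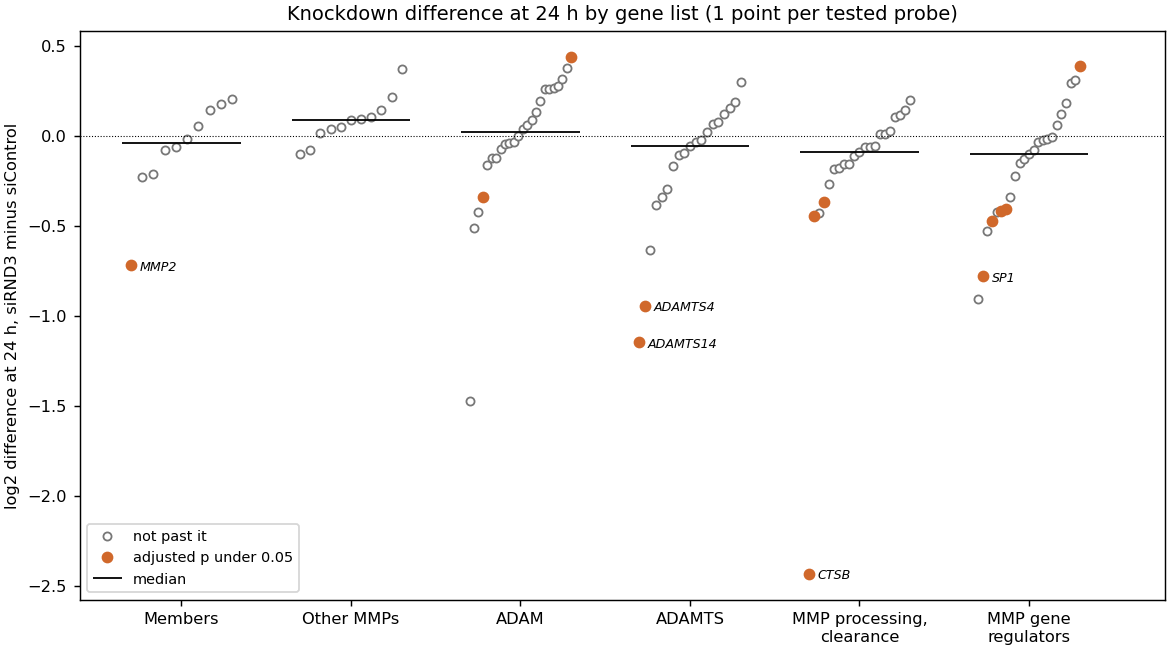
Log2 difference at 24 h for each tested probe of the 10 members and of the other lists, sorted within a list, with filled points for adjusted p under 0.05 and a line for the median. CTSB lies at -2.43 and the other MMPs have no filled point.

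The median difference at 24 h was 0.09 over the probes of the other MMPs, 0.02 for ADAM, -0.06 for ADAMTS, -0.09 for the processing list and -0.10 for the factors, where all probes had 0.05. At 48 h the factors had -0.45 and the processing list -0.24, where all probes had 0.05.

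Markers were read to check the culture. VIM, NES and CD44 were well above background on all 8 arrays, OLIG2 on 7 and S100B on 1, while GFAP and SOX2 were so on none. Of 4 tested genes of that list NES was higher at 24 h, on 1 of its 2 probes, and CD44 and OLIG2 were lower. In all, 3 of 5 probes (60%) were called beside 11.6% of all probes. The summed linear intensity of that list was 221727 to 235494 in siControl and 187536 to 215698 in siRND3 cells at 24 h, then 220816 and 156620 at 48 h.

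Lists of other cell types were also well above background in part. All 5 endothelial markers were so on all 8 arrays, and PECAM1 (on 1 of its 3 probes) and KDR were lower at 24 h. The list summed to 392 to 422 in siControl and 356 to 377 in siRND3 cells at 24 h, then 513 and 341 at 48 h. Of the 5 epithelial markers 4 (EPCAM, KRT8, KRT18 and KRT19) were so throughout and CDH1 on 0 arrays. Their list summed to 1257 to 1269 and 1182 to 1462, then 1559 and 1562, with 0 of 4 called at 24 h. Of the 5 leukocyte or microglial markers 3 (PTPRC, CD68 and CSF1R) were so throughout and CX3CR1 on 0 arrays. That list summed to 7190 to 7349 and 7096 to 8123, then 6686 and 7699, with CSF1R lower at 24 h. Of the 5 neuronal markers 4 (SYT1, SNAP25, MAP2 and TUBB3) were so throughout and RBFOX3 on 0 arrays. The neuronal list summed to 17653 to 19254 and 16389 to 20066, then 18722 and 25935, with SNAP25 and SYT1 (on 1 of its 2 probes) lower at 24 h. At 24 h the share of probes called was 33.3% of 6 endothelial, 0% of 5 epithelial, 25% of 4 leukocyte or microglial and 40% of 5 neuronal probes. Over all probes it was 11.6%. The part of these cell types in the metalloproteinase differences was not tested.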

How the data were processed

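Total RNA of 8 samples was hybridised to 1-colour (Cy3) Agilent arrays, 1 array per sample, grouped by the deposited labels. The authors scanned them with Feature Extraction 10.7.3.1, and the deposited intensity is a processed signal corrected for background within each array. A second deposited table holds log2 values that the methods describe as quantile-normalised. These had the same rank order as the spot medians (rank correlation 1).

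Here log2 intensity of 58717 non-control spots (4259 control spots left out) was quantile-normalised over all arrays, outlier spots were removed and spots of a probe averaged, giving 42405 probes. A probe was well above background where 50% of its spots were so marked by the scanner software (68.3% to 70.7% of probes per array), and it was tested when this held on the 3 arrays of either group at 24 h. No spot was saturated. The number of arrays limits the precision. Probes were named by transcript accession through RefSeq (GRCh38.p14), which matched 25422 (60.0%). Probes of a gene were tested separately. The arrays were annotated on another build, so no probe coordinates are given.

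Groups at 24 h were compared with limma 3.58.1 in R 4.3.3 (lmFit, eBayes, Benjamini-Hochberg over 28759 probes). Comparisons with 48 h used a 4-group limma model in which the single arrays were assumed to vary like those at 24 h. The scripts were tested on simulated data. Alternatives were scaling to the 75th percentile, normexp with offset 50 (run on the spot median), the authors' log2 values, other filters on dim probes, SAM at a false discovery rate of 5% (the test the methods state), a block for the replicate number, all 8 arrays in 1 fit, and each 24 h array left out. For the 48 h difference the filters, the block and the left-out arrays were added after seeing the data.

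The named genes were RND3, every member, genes of the other lists called at 24 h or in the step between times (at most 6 per list), and the 5 genes closest to MMP2. The members and lists, including other MMP, ADAM, ADAMTS, processing, factor and marker genes, were chosen with earlier results of these data known. Marker genes were named after their values were seen.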

Additional observations from a re-analysis of the deposited data

Results flagged for a closer look

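The knockdown difference at 48 h differed from that at 24 h, by the limma test of the difference itself, for 2 members and 3 genes of the other lists. The step was -2.20 for MMP2 (SE 0.18, adjusted p 0.0123) and -1.34 for TIMP3 (SE 0.15, adjusted p 0.0219). It was -1.11 for ADAM8 (SE 0.14, adjusted p 0.0245), -1.01 for ADAMTS4 (SE 0.17, adjusted p 0.0412) and 0.75 for THBS2 (SE 0.13, adjusted p 0.0428). Each rests on 1 array per group at 48 h, and the cause was not tested. The MMP2 step without siControl replicate 1 was -2.19 (adjusted p 0.0645).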

How the results depend on the processing

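MMP2 at 24 h passed under all 14 alternatives (-1.27 to -0.66), and MMP2 and TIMP3 at 48 h under all 12 run (-2.92 to -2.77 and -1.56 to -1.46). The 48 h difference was a single array minus a single array, and neither was ever left out. Leaving out a 24 h array therefore kept it at -2.92 for MMP2 and -1.56 for TIMP3. The filters and the block could not move it either. These alternatives changed only the borrowed spread and the adjusted p. The 48 h ranges thus cover only scaling, background correction and the authors' values, and do not measure spread between 48 h arrays. RND3 at 24 h ranged from -1.74 to -1.60. Over the members, 583 results kept direction and side of the threshold, 18 lost the threshold, 5 gained it and 14 changed sign, and the cause was not tested.

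The replicate numbers did not pair the arrays (correlations of deviations 0.00, -0.01 and 0.13). With the replicate block, probes called were 1651 at 24 h, 3505 at 48 h, 0 for the step between times, 0 for time in siControl and 1 for time in siRND3 (3350, 5452, 785, 1023 and 2598 without it), and members called were 2 at 48 h and 0 in each of the last 3. TIMP1 for time in siRND3 changed to 0.00238.

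After normexp, 1300 probes were called for the step and 1565 for time in siControl. At 24 h it called 2 members beside 4209 of all probes, and it called 2 members for time in siRND3. For the latter, 3 members were called with the authors' values and 2 under the stricter filter. Without the filter 3 members were called at 48 h. Over the alternatives, all probes called ran from 1 to 3342 for time in siRND3 and from 3505 to 6093 at 48 h. These member counts are a description.

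Leaving out 1 array gave 1379 to 2574 probes at 24 h, 4087 to 5514 at 48 h, 7 to 273 for the step, 73 to 905 for time in siControl and 1446 to 2394 for time in siRND3, and 2 to 4 members at 48 h and 0 to 2 for the step. The lowest counts came without siControl replicate 1 for the step and without siControl replicate 3 at 24 h and for both time comparisons.

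Sign changes were confined to small differences. MMP3 at 24 h became 0.0103 with 75th percentile scaling and -0.0629 to 0.0264 with 1 array left out, where MMP7 gave -0.0518 to 0.206. For time in siControl, leaving out 1 array gave MMP14 -0.0159 to 0.0554 and TIMP4 -0.0195 to 0.0322, and TIMP4 was -0.0442 after normexp and -0.0453 with the authors' values. For time in siRND3, MMP9 became 0.0295 (75th percentile), 0.00546 (normexp) and 0.00426 (authors' values), and -0.0313 to 0.00816 with 1 array left out. The fit of all 8 arrays, which pools 24 h and 48 h, gave -0.190 for ADAM8 and 0.0269 for THBS2. These are opposite in sign to the 24 h differences but are not 24 h differences themselves.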
